A study of Mus musculus with 45 samples.

Results

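The comparison described here set livers of the line labelled Uhrf1hepKO (KO; the name stands for loss of Uhrf1 in hepatocytes) against wild-type livers (WT) 48 h after removal of part of the liver. Its members were chosen by label: the 5 libraries of this time, WT replicates 2 and 3 and KO replicates 1, 2 and 3, out of 45 in the series. The series measured poly(A) RNA from mouse liver by 100 bp paired-end sequencing, in 16 groups of genotype and time that span baseline, 24 h, 30 h, 40 h, 48 h, 96 h, 7 days and 4 weeks. Mice of all groups carried the C57Bl/6 strain label, ate normal diet and were 8 to 12 weeks old at a 2/3 partial hepatectomy done in the morning. The promoter that drives the deletion and the number of animals behind each library were not given in the sources used here, so p-values measure the spread between these libraries, which may be in part technical.

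UHRF1 recognises DNA that carries methyl groups on 1 strand only, as it does just after replication, and brings the methyltransferase DNMT1 to it, so that methylation patterns pass to both daughter strands. Genes that are kept silent by promoter methylation in somatic tissue, among them germline genes on the X chromosome and elsewhere, are known to become active where this maintenance is lost. After partial hepatectomy the resting hepatocytes of the remaining lobes enter the cell cycle nearly together, replicate their DNA and divide, which in mouse puts DNA synthesis and mitosis in the first days after surgery. The 48 h libraries sample that period.

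Total counts of the 5 libraries lay between 17.1 M and 20.7 M (M, mega-counts), within the 12.9 M to 23.1 M of the whole series. Albumin took 5.56% to 9.41% of the counts, and Hnf4a, the transcription factor that defines hepatocytes, stood at 535 to 640 CPM (counts scaled to library size, with TMM factors) in all 5. The Y-linked genes Ddx3y, Eif2s3y, Kdm5d and Uty were read in every library, from 8.35 CPM (Uty) to 53.3 CPM (Ddx3y). Across genes, the correlation of log2 CPM between libraries ranged from r = 0.975 to 0.988, and the highest was between WT replicate 2 and KO replicate 2. The first principal component held 37.9% of the variance and put WT replicate 3 at 1 end (38.1) and KO replicate 1 at the other (-29.6), with WT replicate 2 (-3.05) between the KO libraries. WT replicate 3 also stood apart by acute phase genes.

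The target of the deletion, Uhrf1 (ENSMUSG00000001228, on the plus strand of chromosome 17 from 56303321 to 56323486 in mm10), was lower in every KO library. It stood at 19.2 and 19.9 CPM in WT replicates 2 and 3 and at 7.37, 3.88 and 3.69 CPM in KO replicates 1, 2 and 3. The groups did not overlap, and the KO library with the most Uhrf1 was still under WT. The log2 difference was -1.97 ± 0.52 (SE), with an unadjusted p of 0.000627 and an edgeR adjusted p of 0.231 over all genes tested, so Uhrf1 itself was not called. It passed the same threshold on these 5 libraries alone with DESeq2 (adjusted p = 7.3e-06) but not with edgeR (0.547). Counts cover the whole gene in whole liver, so reads of retained exons or of cells other than hepatocytes are included; their part in the KO level was not tested. Levels of Dnmt1 and Uhrf2 overlapped between groups. Dnmt1 was at 32.5 and 27.3 CPM in WT and 38, 26.7 and 25.6 CPM in KO, and Uhrf2, the paralog of Uhrf1, at 60.4 and 45.8 CPM in WT and 49.3, 59.6 and 50 CPM in KO. None of the 20 tested genes of the list of DNA methylation writers, erasers and readers was called, and the median log2 difference of the list was 0.003, beside 0.016 for all genes tested.

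Of 14090 genes tested, 19 (0.135%) differed between KO and WT at a Benjamini-Hochberg adjusted p under 0.05 in edgeR's quasi-likelihood test. KO was higher for 18 of them (0.128%) and lower for 1, Pyroxd2 (0.0071%). At an unadjusted p under 0.05, 386 genes (2.74%) were higher and 316 (2.24%) lower, 4.98% together. Libraries did not overlap for 1408 genes (9.99%) higher in KO and 1114 (7.91%) lower, and all 19 called genes were among these. The spread in this fit came from all 45 libraries. Within the 5 libraries alone edgeR called 0 of 13017 genes, with 477 at an unadjusted p under 0.05, while DESeq2 called 40 on the same libraries, 12 of them among the 19. Without WT replicate 2 the count was 10, of which 4 were lower in KO and 4 were among the 19. Without WT replicate 3 it was 4, with 3 among the 19. Without KO replicates 1, 2 and 3 it was 11, 9 and 21, with 10, 8 and 16 among the 19. Unc119b, Bglap3 and Gstp2 were called in all 5 of these fits and Gm15287 in 4, all but that without WT replicate 3. Xist, Rhox5, Gm42503 and Gm28321 were called in 3, those with both WT libraries. Gm16001, Usp20, Bag2, Pyroxd2, Catsperd, Bmi1 and Ehbp1l1 were called in 1, that without KO replicate 3, and Gm15280 and Gm38271 in 1, that without KO replicate 1. Gm8334 was called without KO replicate 3, was not called without either WT library, and was not tested without KO replicate 1 or 2. Tuba3b was called in 0.

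**Figure D1:**
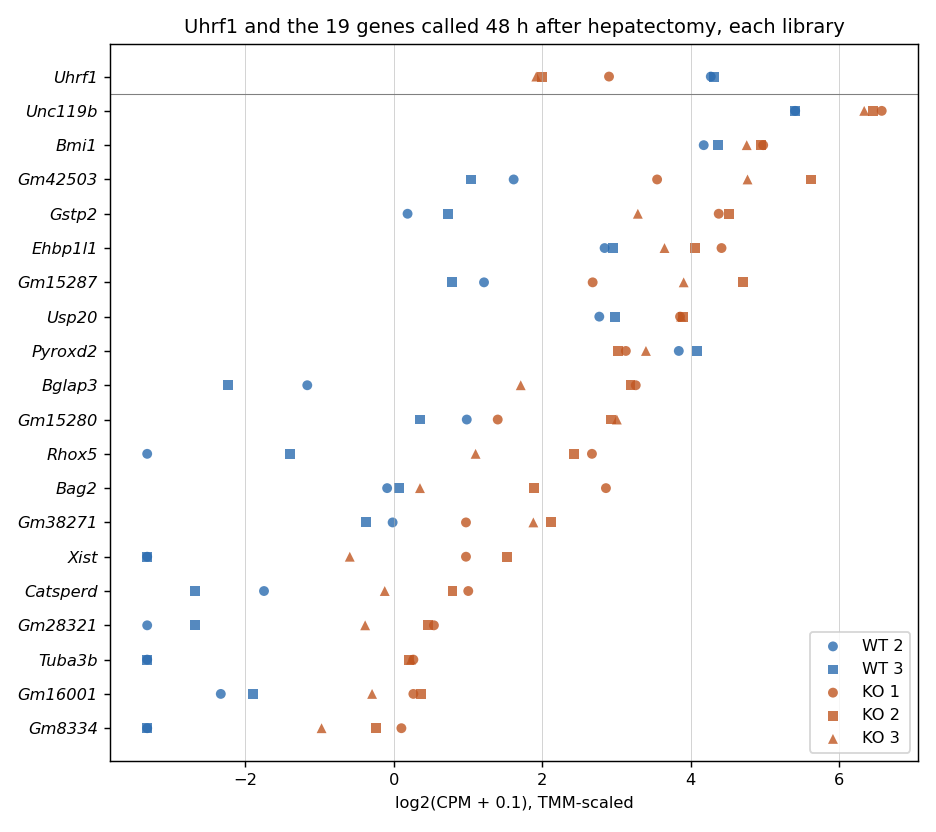
Level of Uhrf1 (top row) and of the 19 called genes in each of the 5 libraries at 48 h, on a log2(CPM + 0.1) axis; blue symbols are the 2 WT libraries and orange symbols the 3 KO libraries. For the 18 higher genes every orange symbol lies to the right of both blue ones, and KO replicate 3 (triangle) is the lowest KO library for 12 of them.

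**Figure D2:**
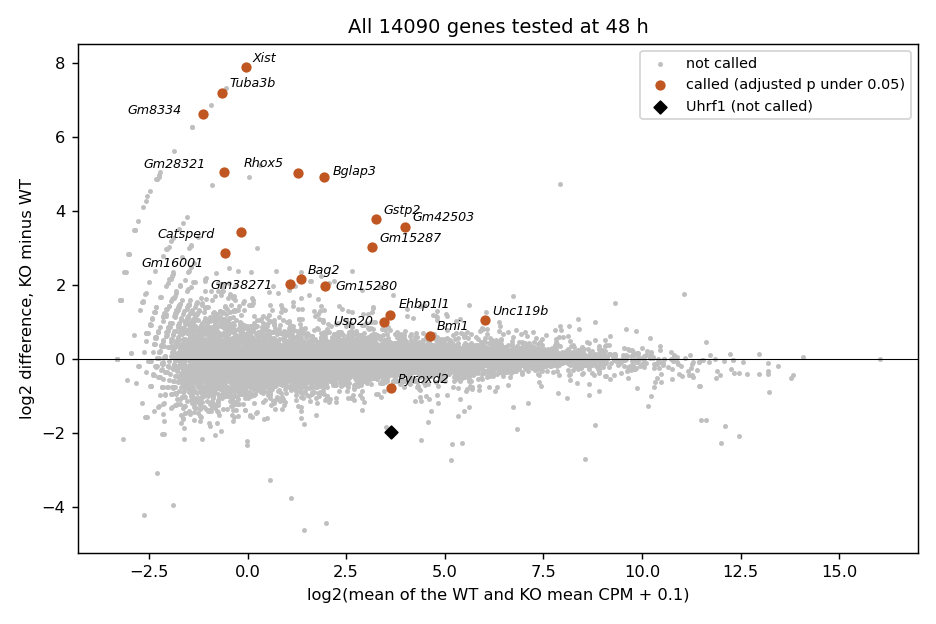
Log2 difference (KO minus WT, vertical axis) against mean level (horizontal axis) for all 14090 genes tested at 48 h, with called genes in orange and named, and Uhrf1 as a black diamond. Xist, Tuba3b and Gm8334 had no count in WT, so their fitted size depends on the prior count.

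The genes higher in KO fell into germline or silent genes, 1 glutathione transferase, a few broadly expressed genes, and predicted or non-coding genes. Bglap3, a member of the osteocalcin gene family whose other members are made by bone-forming cells (ENSMUSG00000074489, chromosome 3, 88368616 to 88372743, minus strand), was nearly silent in WT, with 0.346 and 0.112 CPM. In KO it stood at 9.49, 9.04 and 3.18 CPM. Every KO library was above both WT libraries, and KO replicate 3 was the lowest of the 3. The log2 difference was 4.91 ± 0.66 (edgeR adjusted p = 0.000114), and it was called without any 1 of the 5 libraries in turn.

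Rhox5, an X-linked homeobox gene of testis and placenta and a classic target of silencing by DNA methylation, had 0 and 0.28 CPM in WT and 6.27, 5.29 and 2.05 CPM in KO. The groups did not overlap, and the WT value rested on 5 counts, all in replicate 3. The log2 difference was 5.03 ± 0.88 (edgeR adjusted p = 0.00451), and it was not called without WT replicate 2 (adjusted p = 0.167) or without WT replicate 3 (0.0591). Tuba3b, an alpha-tubulin of testis (ENSMUSG00000067338, chromosome 6, 145615757 to 145621479, plus strand), had no count in either WT library and 26, 24 and 21 counts in KO, which is 1.1, 1.06 and 1.08 CPM. The KO mean was 13.7 times the 0.0787 CPM that 3 counts over both WT libraries would give (edgeR adjusted p = 0.0351). That WT bound covers counting error in WT only, not the spread between KO libraries. The KO libraries were nearly equal to each other for this gene, but leaving out any 1 of the 5 libraries ended the call. Its neighbour in sequence, Tuba3a, also had 0 counts in WT and 20, 13 and 13 in KO, with an adjusted p of 0.0735. Of the 100-base stretches of Tuba3b transcripts, 10.4% also occur in Tuba3a, so some reads cannot be assigned to 1 of the pair.

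Catsperd, a subunit of the sperm calcium channel CatSper, was at 0.198 and 0.056 CPM in WT and at 1.91, 1.63 and 0.82 CPM in KO. All 3 KO libraries were above WT, with KO replicate 3 the lowest, and the log2 difference was 3.41 ± 0.73 (edgeR adjusted p = 0.0379). Gm8334, annotated as protein coding on the X chromosome (148613253 to 148615153, minus strand), had 0 counts in WT and 23, 17 and 8 in KO (adjusted p = 0.0379). Its KO mean was 9.03 times the WT bound of 0.0787 CPM, and KO replicate 3 was the lowest, at 0.41 CPM. Xist, the RNA that coats the inactive X chromosome in female cells, had 0 counts in both WT libraries and 44, 63 and 11 in KO, which is 1.86, 2.78 and 0.563 CPM. The KO mean of Xist was 22 times the same WT bound (edgeR adjusted p = 0.00356), which leaves out the spread between KO libraries. KO levels were far under those of the Y-linked genes in the same libraries. Xist was not called without either WT library or with limma on the FPKM values, and Tsix overlaps it on the opposite strand, so with the strand setting not given their reads cannot be told apart. Tuba3b, Tuba3a and Xist were the only genes of 19966 in the table with 10 or more counts in each KO library and 0 in both WT libraries; 0 genes met the opposite rule. On the X chromosome lay 4 of the 18 higher genes (22.2%), beside 428 of 14039 tested genes with a position (3.05%) and 17 of the 386 genes higher at an unadjusted p under 0.05 (4.4%). Of the 4, Xist and Gm8334 had 0 counts in WT and Rhox5 had 5, so at 48 h they were read almost only in KO. The share on the X describes the called genes and is not a test of the chromosome.

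The fixed list of methylation-silenced germline and cancer-testis genes named 57 symbols; the count table had 36 and 14 passed the filter on low counts. A gene that passes only through its KO level had to differ, so the counts that follow describe the list and support nothing. Rhox5 and Tuba3b were the 2 called members (beside 0.128% of all genes called higher). At an unadjusted p under 0.05, 7 members were higher in KO (beside 2.74% of all genes) and 0 lower (2.24%). KO was above WT without overlap for 11 (beside 9.99% of all genes) and below it for 0 (7.91%). The median log2 difference was 3.23, or 1.44 with the 6 members at 0 in WT set to the bound for counting error in WT. Of the members not called, the X-linked tumour-antigen gene Magea2 had 0 counts in WT and 32, 22 and 4 in KO (adjusted p = 0.0815), and Magea3 had 0 and 21, 14 and 3 (0.159). Pnma5, an X-linked paraneoplastic antigen family gene outside the list, had 0 counts in WT and 40, 34 and 6 in KO (0.0735), and it was chosen after its values were seen. KO replicate 3 was the lowest KO library for all 3 genes.

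Promoter windows of Bglap3 and Tuba3b are printed because the genes had few or no counts in WT and were read in KO. Those of Gstp2 and its neighbour Gstp1 are set side by side because by counts 1 of the pair was called and the other was not (Gstp1 was added after its values were seen). Each window runs 5′ to 3′ on the gene's strand from 250 bases before to 50 bases after the RefSeq start (GRCm38.p6), in lower case, with each CpG, the dinucleotide that DNMT1 methylates, in capitals. Bglap3 is at chr3:88372692-88372991 (minus strand), Tuba3b at chr6:145615713-145616012 (plus), Gstp2 at chr19:4042172-4042471 (minus) and Gstp1 at chr19:4037863-4038162 (minus).
Bglap3: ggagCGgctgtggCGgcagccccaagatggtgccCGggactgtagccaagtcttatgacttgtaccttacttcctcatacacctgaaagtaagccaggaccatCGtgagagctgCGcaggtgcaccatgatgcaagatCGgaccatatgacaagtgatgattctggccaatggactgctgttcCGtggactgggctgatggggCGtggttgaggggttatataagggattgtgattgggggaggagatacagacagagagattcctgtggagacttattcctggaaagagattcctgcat
Tuba3b: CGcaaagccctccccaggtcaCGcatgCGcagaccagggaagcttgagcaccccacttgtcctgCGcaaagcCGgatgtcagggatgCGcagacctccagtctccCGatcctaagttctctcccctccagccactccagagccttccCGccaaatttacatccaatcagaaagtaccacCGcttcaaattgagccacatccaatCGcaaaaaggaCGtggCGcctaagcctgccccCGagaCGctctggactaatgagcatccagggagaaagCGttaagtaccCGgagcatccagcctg
Gstp2: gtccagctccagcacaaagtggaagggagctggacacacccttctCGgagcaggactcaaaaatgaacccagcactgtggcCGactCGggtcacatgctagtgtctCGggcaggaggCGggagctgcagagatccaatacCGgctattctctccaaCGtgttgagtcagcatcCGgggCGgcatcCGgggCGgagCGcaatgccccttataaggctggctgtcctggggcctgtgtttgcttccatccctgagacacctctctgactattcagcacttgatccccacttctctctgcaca
Gstp1: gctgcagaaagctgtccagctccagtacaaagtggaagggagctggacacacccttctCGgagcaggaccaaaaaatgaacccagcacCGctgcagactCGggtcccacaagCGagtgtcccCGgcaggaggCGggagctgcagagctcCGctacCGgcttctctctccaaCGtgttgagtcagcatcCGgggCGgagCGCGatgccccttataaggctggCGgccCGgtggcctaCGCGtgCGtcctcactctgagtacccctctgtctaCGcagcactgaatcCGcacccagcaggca
The windows hold 8 (Bglap3), 16 (Tuba3b), 12 (Gstp2) and 20 (Gstp1) CpG. Gstp2 and Gstp1 are identical at 245 of 317 columns of an alignment of their windows (77.3%). The RefSeq start lies 3802 bases from the 5′ end of the gene in GENCODE for Gstp2, 206 for Tuba3b, 73 for Gstp1 and 2 for Bglap3. The Gstp2 window and most of the Tuba3b window thus lie within the gene as annotated in GENCODE. A comparison of CpG content between called genes and all genes was void, because only 13 of 18 called higher genes (72.2%) and 74.9% of genes tested had a window. Methylation was not measured in these files.

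Gstp2, a pi-class glutathione S-transferase that conjugates electrophiles to glutathione (ENSMUSG00000038155, chromosome 19, 4040285 to 4046023, minus strand), was at 1.04 and 1.57 CPM in WT and at 20.7, 22.8 and 9.68 CPM in KO. The lowest KO library was over 9 CPM and the highest WT library under 2. The log2 difference was 3.77 ± 0.53 (edgeR adjusted p = 0.000163), and the call held without each of the 5 libraries. The deposited FPKM table (fragments scaled to transcript length and library size) gave another picture: 617 and 340 FPKM in WT and 549, 454 and 279 FPKM in KO, which overlap, with a log2 difference of -0.16 on the log2(FPKM + 0.1) scale. Gstp1, the adjacent and far more abundant copy, was at 952 and 641 CPM in WT and 803, 608 and 432 CPM in KO (log2 -0.37 ± 0.27, adjusted p = 1). Of the 100-base stretches of Gstp2 transcripts, 35.9% also occur in Gstp1, so how reads of the pair were assigned can set the Gstp2 value, and its increase is uncertain to that extent.

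No other glutathione transferase or NRF2 target, genes of the response to oxidants and electrophiles, was called. Of 33 tested members of the list, 1 was called (beside 0.128% of all genes called higher), and the median log2 difference was 0.36. At an unadjusted p under 0.05, 9 were higher (beside 2.74% of all genes) and 0 lower (2.24%). Gstm1 was at 648 and 478 CPM in WT and at 1659, 798 and 503 CPM in KO, and Gstm3 at 70.4 and 28.7 CPM in WT and at 366, 86.4 and 30.8 CPM in KO. In both genes KO replicate 3 lay within the WT range and replicate 1 far above it. Without KO replicate 1 the list's median was 0.14, with 2 members higher and 2 lower, beside 462 of all 14078 genes at an unadjusted p under 0.05. The same library had the most Cyp3a11, a cytochrome P450 of drug metabolism, at 7340 CPM beside 1411 and 1230 CPM in the other KO libraries and 1089 and 881 CPM in WT (log2 1.76 ± 0.65, adjusted p = 0.827).

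Several broadly expressed genes also rose in KO. Unc119b, a lipid-binding carrier that takes myristoylated proteins to the cilium (chromosome 5, 115122550 to 115134975, minus strand), was at 42.4 and 42.5 CPM in WT and at 95.3, 87.5 and 80.9 CPM in KO. Every KO library was far above both WT libraries, which were nearly equal, and the log2 difference was 1.05 ± 0.14 with the smallest p of all genes (edgeR adjusted p = 7.3e-05), called without each library in turn. Usp20, a deubiquitinase, was at 6.72 and 7.78 CPM in WT and at 14.4, 14.8 and 14.5 CPM in KO (log2 1.01 ± 0.20, adjusted p = 0.0231). The 3 KO libraries differed from each other by less than the 2 WT libraries did, and the call was lost without any 1 library other than KO replicate 3.

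Bmi1, a core subunit of Polycomb repressive complex 1, was at 18 and 20.5 CPM in WT and at 31.4, 30.9 and 26.9 CPM in KO (log2 0.63 ± 0.14, edgeR adjusted p = 0.0379). The Bmi1 call was lost without any 1 library other than KO replicate 3 and held in 6 of 17 alternatives. It was the only one of 32 tested Polycomb genes to be called, and the median log2 difference of the list was 0.005. Ezh2, the H3K27 methyltransferase of the other Polycomb complex, was at 21.2 and 15.9 CPM in WT and 24.3, 22.2 and 19.8 CPM in KO, which overlap. Ehbp1l1, a membrane-trafficking protein that binds Rab8, was at 7.07 and 7.67 CPM in WT and 21.3, 16.6 and 12.4 CPM in KO (log2 1.19 ± 0.26, adjusted p = 0.0495). All 3 KO libraries were above WT, and the adjusted p lay just under the threshold. No called gene lay nearer to it, and just past it came Atf3 (adjusted p = 0.0514) and the cytochrome P450 gene Cyp2a22 (0.0585).

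Bag2, a co-chaperone of HSP70 that restrains the ubiquitin ligase CHIP, was at 0.84 and 0.951 CPM in WT and at 7.16, 3.61 and 1.18 CPM in KO (log2 2.16 ± 0.46, edgeR adjusted p = 0.0351). KO replicate 3 was close to WT and replicate 1 was 6.08 times as high as replicate 3, the widest spread of the 18 higher genes. Bag2 in WT was itself lower at 48 h than in any other group labelled WT. Group means at the other times ran from 1.58 CPM at 7 days to 3.74 CPM at 96 h. The libraries labelled WT at 96 h also held Bglap3, so the upper value is not a clear WT level. Bag1, Bag3, Bag4, Bag5 and Bag6 were not called (adjusted p = 1 for each), and Bag2 was the only call among 30 tested heat shock and BAG genes, whose median log2 difference was 0.02. Pyroxd2, a mitochondrial oxidoreductase-domain protein, was the gene called lower: it was at 14.2 and 17 CPM in WT and at 8.64, 8.02 and 10.4 CPM in KO (log2 -0.79 ± 0.17, adjusted p = 0.0351). Its groups did not overlap, and the call was lost without either WT library or without KO replicate 1 or 2.

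Several predicted genes and non-coding RNAs were also higher in KO. Gm15287, annotated as an antisense RNA (chromosome 13, 111725517 to 111735124, plus strand), was at 2.22 and 1.62 CPM in WT and at 6.31, 26.1 and 14.9 CPM in KO (log2 3.02 ± 0.47, edgeR adjusted p = 0.000693). Gm42503, annotated TEC, a transcript still to be tested by experiment (chromosome 5, 143770040 to 143773745, plus strand), was at 2.97 and 1.96 CPM in WT and 11.6, 49.3 and 27.1 CPM in KO (log2 3.57 ± 0.62, adjusted p = 0.00451). In both genes KO replicate 2 was the highest and replicate 1 the lowest KO library, and no KO library reached down to WT.

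Gm38271, also annotated TEC (chromosome 3, 106589260 to 106590862, plus strand), was at 0.89 and 0.671 CPM in WT and 1.86, 4.23 and 3.59 CPM in KO (log2 2.03 ± 0.42, edgeR adjusted p = 0.0329). Gm15280, an unprocessed pseudogene on the X chromosome (31347183 to 31347822, minus strand), was at 1.88 and 1.18 CPM in WT and 2.54, 7.54 and 7.94 CPM in KO (log2 1.96 ± 0.38, adjusted p = 0.0162). KO replicate 1 was again the lowest KO library for both, near the WT level for Gm15280. Gm16001 and Gm28321, annotated as long intergenic RNAs, were lowest in KO replicate 3 instead. Gm16001 (chromosome 5, 124111109 to 124112264, minus strand) was at 0.0989 and 0.168 CPM in WT and 1.1, 1.19 and 0.717 CPM in KO (log2 2.87 ± 0.56, adjusted p = 0.0159). Gm28321 (chromosome 1, 50815375 to 50817701, plus strand) had 1 count in WT and 74 in KO, a ratio of 42.8 with an exact 95% counting interval of 7.45 to 1715, which covers counting error only (adjusted p = 0.0113). The strand setting of the counting was not given. No gene of this or the preceding paragraph overlapped another gene in GENCODE vM21. Of the called genes, Bag2 (with Gm37905), Pyroxd2 (with AC125458.1) and Xist overlapped a gene on the opposite strand. Reads from the stretches they share cannot be told apart.

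Among the 18 higher genes, KO replicate 3 was the lowest KO library for 12, KO replicate 1 for 5 and KO replicate 2 for 1. The 4 predicted genes Gm15287, Gm42503, Gm15280 and Gm38271, with Usp20, made up the 5 that were lowest in KO replicate 1. Among the KO libraries Uhrf1 itself was highest in replicate 1, and whether these orders follow it was not tested.

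**Figure D3:**
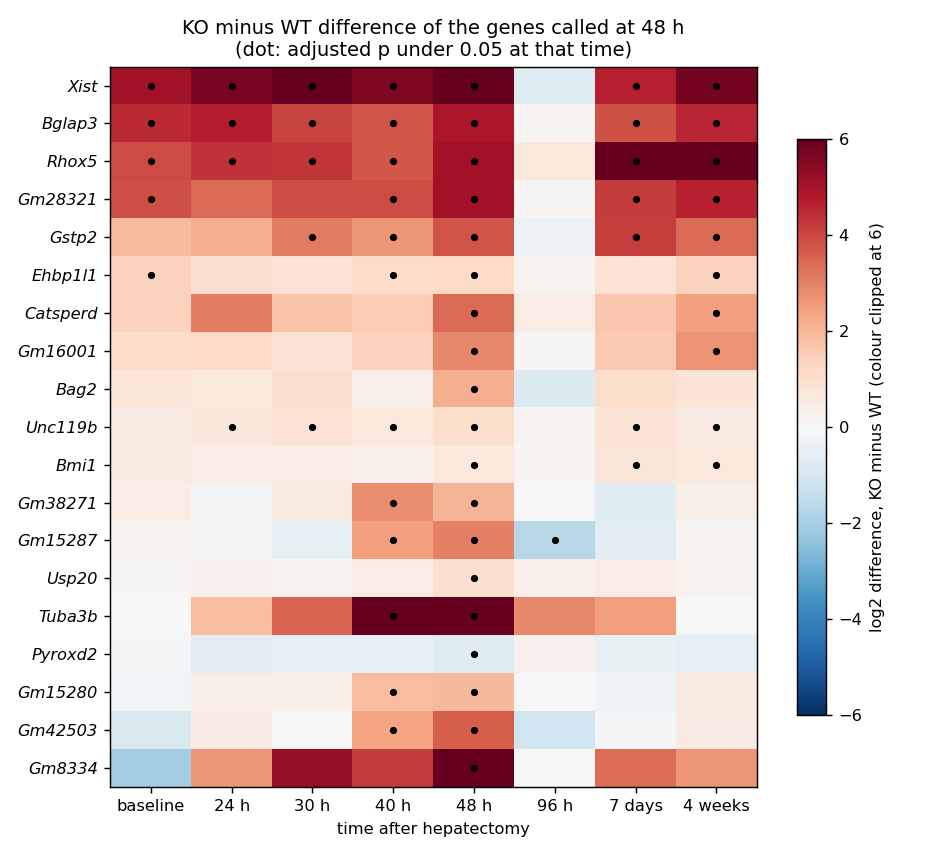
Log2 difference (KO minus WT, colour) of the 19 genes called at 48 h at each of the 8 times, ordered by the baseline difference, with a dot where the adjusted p at that time was under 0.05. Xist, Bglap3 and Rhox5 carry a dot at every time but 96 h, while Gm15287, Gm42503, Gm15280, Gm38271 and Tuba3b carry one with KO higher at 40 h and 48 h alone; fitted values of genes with no count in a group (Tuba3b, Gm8334) depend on the prior count.

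The same genes were read at the other times in other libraries, though 1 fit supplied the spread for all. Of the 18 genes higher at 48 h, 5 were called higher at baseline (beside 0.0781% of all genes), 4 at 24 h (0.0426%), 5 at 30 h (0.873%), 12 at 40 h (0.128%), 0 at 96 h (7.22%), 7 at 7 days (0.135%) and 10 at 4 weeks (0.199%). Bglap3, Rhox5 and Xist were called at all 6 of these times other than 96 h, and Unc119b at 5 of them, all but baseline. At 96 h the libraries labelled WT also held Bglap3, at 9.38 to 28.4 CPM beside 8.83 to 29.4 CPM in those labelled KO, and no genotype difference is read from that time here. Bag2, Usp20, Gm8334 and Pyroxd2 were called at 48 h and at no other time.

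Whether the KO minus WT difference changed between 48 h and another time, in either direction, was tested directly. In edgeR, 0 genes (0%) were called against baseline, and 869 (6.17%) had an unadjusted p under 0.05. Against 40 h 0 (0%) were called, with 584 (4.14%) unadjusted. Against 30 h 1 gene was called (0.0071%), with 803 (5.7%) unadjusted: the KO minus WT difference of Gm15287 was larger at 48 h than at 30 h by 3.62 ± 0.65 on the log2 scale (edgeR adjusted p = 0.043). At 30 h Gm15287 was at 2 to 3.62 CPM in WT and 1.55 to 2.11 CPM in KO, and at 40 h at 1.97 to 3.36 CPM in WT and 13.1 to 19.2 CPM in KO. In KO the gene was thus within or under the WT range at 30 h and above it at 40 h and 48 h. Gm42503 overlapped between genotypes at 30 h, at 4.83 and 3.51 CPM in WT and at 2.02, 5.6 and 5.17 CPM in KO. Its difference at 48 h exceeded that at baseline by 4.41 ± 0.85 (adjusted p = 0.166) and that at 30 h by 3.54 ± 0.82 (adjusted p = 0.212), and neither was called. Tuba3b was at 0 CPM in all libraries of both genotypes at baseline and 4 weeks and at 0.702 to 1.72 CPM in KO at 40 h, and the difference of its genotype differences between 48 h and baseline gave no usable estimate with 3 of the 4 groups at 0.

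**Figure D4:**
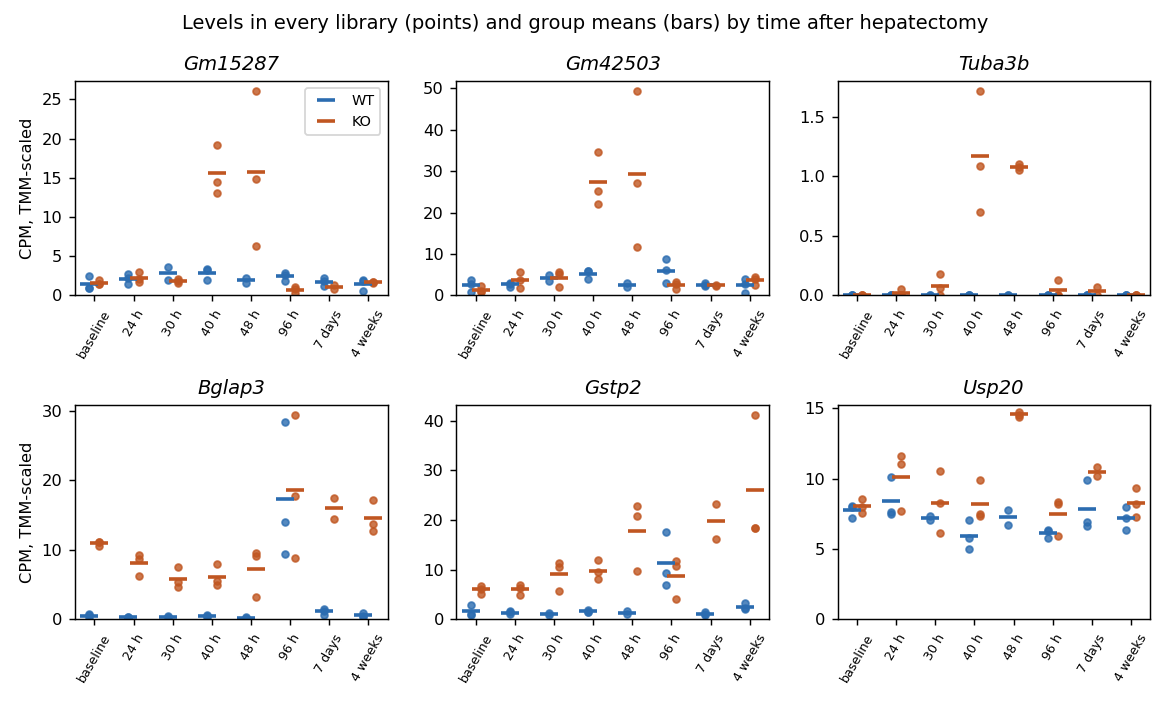
CPM of 6 called genes in every library (points) and group means (bars) at the 8 times, WT in blue and KO in orange, with linear axes from 0. Gm15287, Gm42503 and Tuba3b stand above WT in KO at 40 h and 48 h, Bglap3 is above WT at all times but 96 h, and Usp20 in KO is highest at 48 h, at 14.4 to 14.8 CPM.

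No cell cycle gene was called between genotypes at 48 h. None of 58 G2 and mitosis genes was called or reached an unadjusted p under 0.05, with a median log2 difference of 0.19. Of 56 DNA replication and S phase genes 0 were called and 1 was higher at an unadjusted p under 0.05 (beside 2.74% of all genes), with a median of 0.06. The corresponding medians were 1.61 and 1.01 at 30 h, and -0.1 and -0.46 at 40 h. Mki67, a marker of cycling cells, was at 242 and 165 CPM in WT and at 178, 236 and 188 CPM in KO, and Cdk1, the kinase that drives mitosis, at 191 and 96.1 CPM in WT and 127, 177 and 143 CPM in KO. WT replicate 2 had more of both genes than any KO library and WT replicate 3 less than any, so for these genes the 2 WT libraries enclosed the KO range. The whole mitosis list summed to 4190 and 2370 CPM in WT and to 3227, 4384 and 3606 CPM in KO, with KO replicate 2 the highest. Of its 58 members, 50 had a positive log2 difference (beside 53.7% of all genes tested). Without WT replicate 2 the median of the mitosis list was 0.64, and without WT replicate 3 it was -0.14. The ribonucleotide reductase subunit Rrm2, called at 30 h (log2 2.45, adjusted p = 0.000242), was at 89 and 71.1 CPM in WT and at 106, 89 and 93.3 CPM in KO at 48 h; the difference between these times was -2.19 ± 0.43 (adjusted p = 0.0921).

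**Figure D5:**
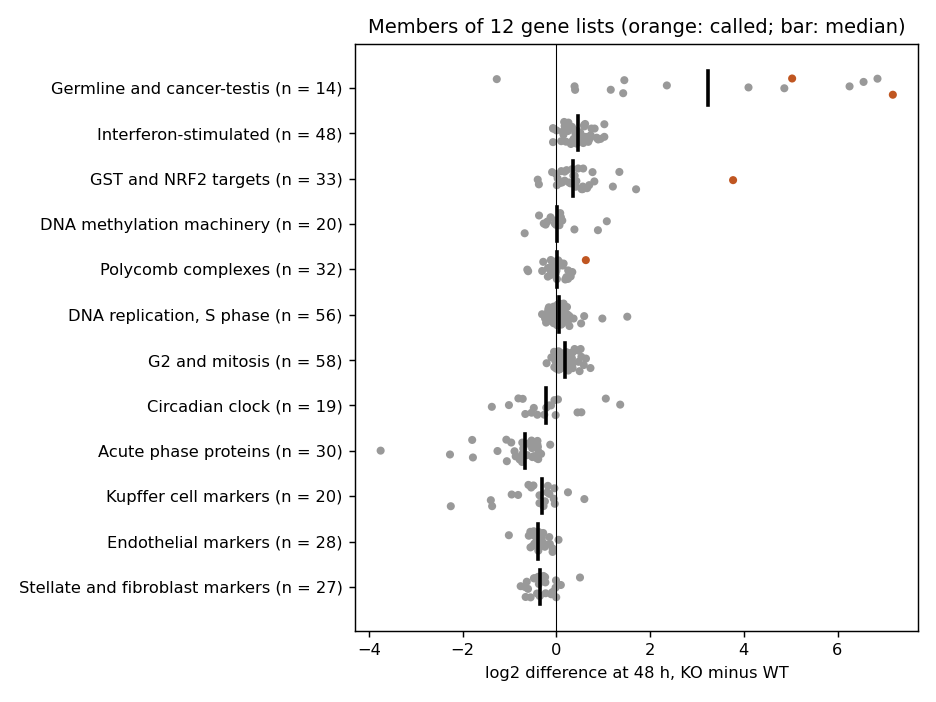
Log2 difference at 48 h (KO minus WT, horizontal axis) of every tested member of 12 gene lists, with called genes in orange and the list median as a black bar; n is the number of members tested. Medians ran from -0.67 (acute phase proteins) to 3.23 (germline and cancer-testis genes), and only the germline, glutathione transferase and Polycomb lists shown hold a called gene.

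Interferon-stimulated genes leaned to KO without any being called. Of 48 tested, 45 had a positive log2 difference (beside 53.7% of all genes tested), and the median was 0.46. At an unadjusted p under 0.05, 13 were higher (beside 2.74% of all genes) and 0 lower (2.24%). KO was above WT without overlap for 13 (beside 9.99% of all genes) and below it for 0 (7.91%). Bst2, the antiviral membrane protein tetherin, was at 108 and 80 CPM in WT and at 153, 136 and 158 CPM in KO (log2 0.67 ± 0.16, edgeR adjusted p = 0.11). Psmb9, an immunoproteasome subunit, was at 12.2 and 11.6 CPM in WT and at 17.8, 16.4 and 25.9 CPM in KO (log2 0.75 ± 0.24, adjusted p = 0.629), and Isg15, a ubiquitin-like antiviral modifier, at 3.26 and 4.59 CPM in WT and at 5.51, 6.26 and 9.94 CPM in KO (log2 0.88 ± 0.34, adjusted p = 0.89). None of these 3 genes overlapped between groups, and KO replicate 3 was the highest library for each. Other members did overlap, among them Igtp and Irf7. Irf7 was at 5.88 and 9.29 CPM in WT and at 11.6, 8.55 and 19.9 CPM in KO. Without KO replicate 3 the list's median was 0.12, with 3 members at an unadjusted p under 0.05, beside 903 of all 14076 genes in that fit. Before surgery the same median was 0.11. It was 0.37 in the 24 h groups, -0.21 and 0.1 in those of 30 h and 40 h, and 0.01 and 0.02 in those of 7 days and 4 weeks.

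Acute phase genes were high in WT replicate 3. All 30 tested acute phase proteins, which hepatocytes secrete during inflammation, had a negative log2 difference, with a median of -0.67. At an unadjusted p under 0.05, 6 were lower (beside 2.24% of all genes), and none was called. Saa1, serum amyloid A, was at 1482 CPM in WT replicate 2 and 12121 CPM in WT replicate 3, beside 1769, 1337 and 2763 CPM in KO (log2 -1.8 ± 1.15, adjusted p = 1). Hp, haptoglobin, was at 5492 and 19547 CPM in WT and at 6378, 5300 and 8532 CPM in KO (log2 -0.89 ± 0.39, adjusted p = 0.979). WT replicate 2 lay within the KO range in both, and WT replicate 3 alone was high. Without it the list's median was 0.26.

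Markers of Kupffer cells, the resident macrophages of liver, were high by their sum in WT replicate 3 and in KO replicate 3. Their summed level was 322 CPM in WT replicate 2, 802 CPM in WT replicate 3 and 344, 360 and 642 CPM in KO, and no marker was at 0 in all 5 libraries. The scavenger receptor Marco was at 12 and 132 CPM in WT and 11.5, 10.4 and 23.3 CPM in KO (log2 -2.25 ± 0.78, edgeR adjusted p = 0.751), and lysozyme, Lyz2, at 9.59 and 62.8 CPM in WT and 10.1, 10.8 and 20.3 CPM in KO (log2 -1.4 ± 0.53, adjusted p = 0.87). Marco and Lyz2 were well above every other library in WT replicate 3. So was the marker Adgre1, at 2.92 and 18.4 CPM in WT and 2.25, 3.35 and 6.76 CPM in KO. Clec4f, a lectin of Kupffer cells, was highest in KO replicate 3 instead. It was at 18.6 and 36.9 CPM in WT and 18.3, 23.6 and 57.2 CPM in KO (log2 0.25 ± 0.50, adjusted p = 1). Cd5l, a secreted macrophage protein, was highest in WT replicate 3, with KO replicate 3 next. It was at 28.2 and 107 CPM in WT and 30.2, 32 and 77.9 CPM in KO. Of 20 tested markers 3 were lower (beside 2.24% of all genes) and 0 higher (2.74%) at an unadjusted p under 0.05, and 0 were called. Libraries did not overlap for 0 of them (beside 9.99% of all genes higher and 7.91% lower). The median of -0.32 became 0.69 without WT replicate 3. In RNA from whole liver, fewer cells of a type and less RNA per cell cannot be told apart.

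Endothelial and stellate cell markers were lower in KO by their medians, with none called. The median log2 difference of 28 endothelial markers was -0.38, with 2 lower at an unadjusted p under 0.05 (beside 2.24% of all genes). Their summed levels were 586 and 664 CPM in WT and 362, 460 and 678 CPM in KO. Pecam1, an endothelial adhesion molecule, was at 14 and 16.7 CPM in WT and 8.05, 11.9 and 13.1 CPM in KO (log2 -0.48 ± 0.23, edgeR adjusted p = 0.994). KO replicate 1 was the lowest library in both measures, and KO replicate 3 lay above both WT libraries by the summed level. Without KO replicate 3, 21 of the 28 markers were lower at an unadjusted p under 0.05 and the median was -0.66. In that fit 903 of all 14076 genes had such a p in either direction. Without KO replicate 1 none of the markers was lower at that threshold, beside 462 of all 14078 genes in either direction, and the median was -0.18. Of 27 stellate cell and fibroblast markers 2 were lower at an unadjusted p under 0.05 (beside 2.24% of all genes). Their median was -0.34, which became -0.14 without WT replicate 2 and -0.11 without KO replicate 1. Pdgfra, a growth factor receptor of liver fibroblasts, was at 7.66 and 8.73 CPM in WT and 4.03, 5.2 and 6.25 CPM in KO (log2 -0.67 ± 0.23, adjusted p = 0.743), without overlap.

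Immediate early and clock genes held members that did not overlap between groups but were not called. Atf3, a transcription factor of the stress response, was at 1.48 and 0.951 CPM in WT and at 8.6, 5.07 and 3.79 CPM in KO (log2 2.25 ± 0.50, edgeR adjusted p = 0.0514). Fos, a component of AP-1, was at 1.48 and 2.74 CPM in WT and at 6.36, 6.13 and 3.38 CPM in KO, and Egr1 at 30.1 and 47.5 CPM in WT and 86.3, 132 and 59.5 CPM in KO (adjusted p = 1 for both). KO was above WT without overlap in 8 of 17 tested immediate early genes (9.99% of all genes) and below it in 1 (7.91%), and the median log2 difference was 0.24. The lower one was Fosl2, another component of AP-1, at 20.7 and 20.8 CPM in WT and 8.9, 13 and 18.2 CPM in KO (log2 -0.64 ± 0.27, adjusted p = 0.965). Of 19 clock genes, 5 were lower in KO without overlap (beside 7.91% of all genes) and 1 higher (9.99%). Per2, a repressor of the clock, was at 13.4 and 14.4 CPM in WT and at 5.97, 7.14 and 7.58 CPM in KO (log2 -1.01 ± 0.36, adjusted p = 0.751), and Cry2, its partner, at 19.7 and 15.9 CPM in WT and at 10.6, 11.3 and 11.8 CPM in KO (log2 -0.66 ± 0.20, adjusted p = 0.424). The hour at which each liver was taken was not given in the sources used here, and its part in these values was not tested.

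Of the 39 gene lists examined, 34 held no called gene, and the median log2 difference of 26 lists lay within 0.25 of 0. Among the metabolic lists, that of 25 cholesterol synthesis genes had a median of -0.06 with none at an unadjusted p under 0.05, and that of 25 urea cycle and amino acid genes a median of 0.06. Asns, asparagine synthetase and a target of ATF4, was at 5.54 and 4.36 CPM in WT and at 17.2, 12.1 and 9.48 CPM in KO (log2 1.39 ± 0.48, edgeR adjusted p = 0.743), the smallest p of its list of 29, and the list's median was 0.11. Igf2bp3, an oncofetal RNA-binding protein, was at 0.247 and 0.168 CPM in WT and at 1.27, 0.661 and 0.666 CPM in KO (log2 2.02 ± 0.72, adjusted p = 0.756). The KO libraries lay above WT in both genes, and neither was called.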

How the data were processed

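Sample titles gave the genotype and time of each poly(A) RNA library. The authors deposited whole-number counts for 19966 Ensembl genes, and FPKM values for 46472 entries (66 of them repeated IDs, summed here) as a second table, used in alternatives. Tools named per the submitters' processing notes were FastQC 0.11.5, Trimmomatic, TopHat2 2.1.0, Cufflinks 2.2.1, HTSeq and DESeq2 on build mm10; no source used here gives parameters, annotation or strand setting. Some FPKM entries of abundant genes are listed at 0 (Alb in 4 of the 5 libraries).

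Counts were fitted with edgeR 4.0.16 in R 4.3.3 (filterByExpr, TMM, glmQLFit robust, glmQLFTest) with 1 mean for each of 16 groups over all 45 libraries (29 residual degrees of freedom). A call was a Benjamini-Hochberg adjusted p below 0.05 among 14090 genes, which took 99.9% or more of each 48 h library. Differences are log2 ± SE. Levels are CPM. Differences between times were contrasts of the same fit. The fit was also run on counts simulated from its own means and dispersions, with known changes added. That run cannot show how the fit handles a real library that stands apart, such as WT replicate 3. DESeq2 1.42.0 and limma 3.58.1 were alternatives, limma on genes with 0.5 FPKM or more in 2 libraries. Named genes were Uhrf1, every called gene, members of 40 gene lists (1063 symbols, 1017 in the table; 1 list repeats genes of an earlier report and is not described), called differences between times and genes with 10 or more counts in 1 genotype and 0 in the other. The members, lists and rules were chosen with earlier results of these data known. Positions are from GENCODE vM21 (GRCm38), promoters from RefSeq (GRCm38.p6), and 103 IDs had no symbol.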

Additional observations from a re-analysis of the deposited data

Results flagged for a closer look

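The KO minus WT difference of Gm15287 at 48 h exceeded that at 30 h by 3.62 ± 0.65 on the log2 scale (edgeR adjusted p = 0.043), and it was the 1 gene called in the 3 comparisons between times. In KO it was higher than in WT in 3 of 3 libraries at 48 h (6.31 to 26.1 CPM beside 1.62 and 2.22 CPM) and within or under the WT range at 30 h. No gene was called in this comparison without the 96 h libraries, without a filter on low counts, or without WT replicate 2, KO replicate 2 or KO replicate 3. Groups of 2 and 3 libraries are too small for a check of single libraries far from the others.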

How the results depend on the processing

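KO against WT at 48 h gave 19 calls, 19 with DESeq2 size factors, 17 with upper quartile scaling, 20 without a filter, 16 of 12116 genes at 1 CPM or more, 18 without robust estimation and 21 with the DESeq2 Wald test. It gave 0 on the 5 libraries alone in edgeR, 40 with DESeq2 on those 5 (chosen after seeing the data), and 40 and 47 with limma on log2(FPKM + 0.1) and log2(FPKM + 1). Leaving out 1 library gave 4 to 21 calls, and 0 to 3, 0 to 2 and 0 to 1 for the differences from baseline, 30 h and 40 h. The difference from 30 h gave 0 without a filter and 0 without the 96 h libraries. Uhrf1 lay between -2.37 and -1.35 over its alternatives, and was called at -1.98 with DESeq2 on the 5 libraries (adjusted p = 7.3e-06) and at -1.35 with limma on log2(FPKM + 1) (0.0294), where adjusted p over its alternatives ran from 7.3e-06 to 0.802. Gstp2 was -0.16 with both FPKM pseudocounts. Without WT replicate 3 the sign turned for Hp (0.30, beside -1.53 without WT replicate 2), Saa1 (0.40, -2.63), Saa2 (0.25, -3.14), Orm2 (0.86, -2.66), Marco (0.32, -3.13), Lyz2 (0.51, -2.20), Cd5l (0.73, -1.20) and Cxcl13 (2.60, -5.42). The cause of these changes was not tested. Of 318 values of called genes under alternatives, 209 kept direction and call and 107 lost the call. Replicate numbers 2 and 3 recur in both genotypes (correlation of deviations 0.251 and 0.233), but 2 pairs with no stated shared source share only a number. A fit with the replicate number as a block gave 14 calls, 11 of them among the 19, 0, 1 and 0 for the differences from baseline, 30 h and 40 h, and -2.37 for Uhrf1.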

Other observations

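Gm8893, an unprocessed pseudogene on chromosome 12 (103817856 to 103822243, minus strand, mm10) that overlaps Serpina1b on the same strand, differed widely between these libraries without being called. It was at 19.5 and 15.3 CPM in WT and at 647, 366 and 378 CPM in KO (log2 4.74 ± 2.13, edgeR adjusted p = 0.979). Across all 45 libraries it had either 106 CPM or more, up to 1579 CPM, or 56.7 CPM or less. The higher level occurred in 9 of 22 WT and 18 of 23 KO libraries, and within one group libraries fell on both sides, as at baseline, where WT was at 19.3, 805 and 27.4 CPM and KO at 737, 650 and 33.7 CPM. Those totals include the 96 h libraries, at 1579, 46.6 and 914 CPM where labelled WT and 1117, 106 and 561 CPM where labelled KO. No genotype difference is read from that time here. Gm8893 was chosen after its values were seen. Serpina1e, a paralog in the same family, was at 9535 and 8660 CPM in WT and at 104, 3350 and 3033 CPM in KO at 48 h (log2 -2.07 ± 1.22, adjusted p = 1).

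The chemokine gene Cxcl13 was at 0.0494 CPM in WT replicate 2 and 14.7 CPM in WT replicate 3, beside 0.254, 0.309 and 0.461 CPM in KO (log2 -4.42 ± 1.28, edgeR adjusted p = 0.424), a further gene in which WT replicate 3 alone was high. Male-biased liver genes had a median log2 difference of -0.09 over 20 tested members, with 8 above 0, 12 below 0 and 0 called. KO was below WT without overlap for 6 (beside 7.91% of all genes) and above it for 0 (9.99%). Female-biased liver genes had a median log2 difference of 1 over 14 tested members, with 13 above 0, 1 below 0 and 0 called. For 5 of the 14 KO was above WT without overlap (9.99% of all genes) and for 0 below it (7.91%). At an unadjusted p under 0.05, 2 female-biased genes were higher (beside 2.74% of all genes). Cyp2a4, one of them, was at 3.71 and 0.224 CPM in WT and at 4.66, 6.39 and 20.3 CPM in KO (log2 2.37 ± 1.08, adjusted p = 0.993). Before surgery the median of this list was 1.23. It was 1.01 in the 24 h groups, 1.29 and 0.8 in those of 30 h and 40 h, and -0.17 and 0.83 in those of 7 days and 4 weeks.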
